A study of Mus musculus with 19 samples.

Results

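The genes described here are those of the surrogate light chain and of V(D)J recombination in early B cells: Vpreb1, Vpreb2, Vpreb3, Igll1, Rag1, Rag2 and Dntt. The set was selected on earlier results from the same arrays, in which Vpreb2 was among the genes that differed in Aid-Cre tumours. Each was represented by the probe set that carries its symbol and no other, taking the highest mean where several did. Of the 7 genes, 6 were measured in this way, out of 22180 genes on the array. Each of the 6 had 1 such probe set. The Rag1 probe set also carries the symbol of Iftap, so Rag1 was not analysed here. Rag2 is also among the symbols of 1 probe set that carries several, which was not examined.

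The study compared total RNA from mouse splenic cells, with the tissue labelled total spleen, between wild-type mice and mice in which the human germinal centre protein HGAL was placed at the Rosa26 locus and switched on by Cre recombinase. The groups were Rosa26-HGAL with Aid-Cre and a tumour-bearing spleen (4 arrays), Rosa26-HGAL with Mb1-Cre and a tumour-bearing spleen (5 arrays), Rosa26-HGAL with Sca1-Cre and a tumour-bearing spleen (4 arrays), Rosa26-HGAL with Sca1-Cre and a pre-tumoral spleen (3 arrays), and wild-type mice (3 arrays). Aid-Cre is used to act in germinal centre B cells, Mb1-Cre in the B lineage from its earliest committed stage, and Sca1-Cre in stem and progenitor cells. All mice were kept in a conventional facility with exposure to common pathogens, and age was not given in the sources used here. Each array is labelled a biological replicate, and no label says more about how the animals are related. The p-values therefore measure the spread between these arrays.

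A pro-B cell cuts and rejoins its heavy chain gene with the Rag1 and Rag2 recombinase, while Dntt, terminal deoxynucleotidyl transferase, adds untemplated bases at the joints. The new heavy chain then pairs with the surrogate light chain, made of a VpreB protein and lambda5 (Igll1), to form the pre-B cell receptor, which tests the chain and drives a round of division. Mice carry a pair of VpreB copies, Vpreb1 and Vpreb2, whereas Vpreb3 binds immunoglobulin chains inside the cell and continues to be made in later B cells. These steps take place mainly in the bone marrow, and the adult spleen is chiefly a home of mature B cells.

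The upstream sequences below come from RefSeq, build GRCm38.p6, and are shown because several of the genes are neighbours or copies of each other. Vpreb1 (chromosome 16, 16868401 to 16869255, minus strand) lies 4415 bases from Igll1 (16860671 to 16863985, minus strand). Vpreb2 (17979445 to 17981274, plus strand) lies 1110189 bases from Vpreb1 on the same chromosome. Starts are those of the promoter table, which for Vpreb2 and Vpreb3 lie inside the span that the gene table gives, so their windows fall within that span. A stretch of 106 bases was aligned between the upstream regions of Vpreb1 (chr16:16869256-16869361, minus strand, next to the start) and Vpreb2 (chr16:17980315-17980420, plus strand). The copies shared 104 of these bases and differed at 2, which are in capitals.
Vpreb1: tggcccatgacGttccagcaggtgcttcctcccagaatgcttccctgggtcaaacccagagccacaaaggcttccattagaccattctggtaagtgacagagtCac
Vpreb2: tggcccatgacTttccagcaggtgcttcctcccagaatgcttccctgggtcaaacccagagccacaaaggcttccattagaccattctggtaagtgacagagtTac

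Vpreb3 spans 75943024 to 75949657 on chromosome 10. The 250 bases before its start (chr10:75948050-75948299, plus strand) hold an octamer, ATTTGCAT, in capitals, and the 250 bases before Igll1 (chr16:16863986-16864235, minus strand) hold a pair of E-boxes, CAGCTG and CACCTG, in capitals. The octamer is the motif of the B cell factor Oct2 and its relatives, and E-boxes of this kind are bound by E2A. Both strands were searched in windows of the 250 bases before each start, and the motifs do not overlap. The octamer was found in 1.61% of 27025 such windows, CAGCTG in 12.8% and CAGGTG, which reads CACCTG on the other strand, in 17.1%. The pair of E-boxes was also present in the Vpreb2 window, CAGCTG at -60 and CAGGTG at -232 from the start. In the Rag1 window they were at -128 and -135, and the Vpreb1 window held CAGGTG at -88. The aligned stretch of Vpreb2 runs from -250 to -144 and that of Vpreb1 from -106 to the start. The CAGGTG of both copies is therefore the same aligned site. The CAGCTG of Vpreb2 lies outside the stretch, and its counterpart in Vpreb1 was not searched. A match is a description of the letters in the window only.
Vpreb3: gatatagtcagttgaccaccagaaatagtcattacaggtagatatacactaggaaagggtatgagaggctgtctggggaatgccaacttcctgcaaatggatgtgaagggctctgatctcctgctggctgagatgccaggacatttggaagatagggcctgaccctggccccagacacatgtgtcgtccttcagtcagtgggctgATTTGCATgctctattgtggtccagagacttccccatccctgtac
Igll1: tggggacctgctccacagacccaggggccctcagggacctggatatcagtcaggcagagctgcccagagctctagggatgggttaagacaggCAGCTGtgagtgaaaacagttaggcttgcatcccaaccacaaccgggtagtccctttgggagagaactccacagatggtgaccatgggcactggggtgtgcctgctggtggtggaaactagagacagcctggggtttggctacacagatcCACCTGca

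The deposited values are log2 expression, and a difference of 1 is a doubling of signal. A group mean below 4.72, the lowest 40th percentile of any array, is called near background here. A gene is called changed where the limma p-value, adjusted by the Benjamini-Hochberg method over all 22180 genes, is under 0.05. The 4 comparisons with wild type share the same 3 wild-type arrays. In bulk splenic cells, fewer cells of a type and less RNA per cell cannot be told apart. An array is said to carry Y-linked signal where the mean of the measured genes among Kdm5d, Uty and Eif2s3y exceeded Xist. The sex covariate used below is that difference. The wild-type arrays all carried Y-linked signal, as did 1 of 4 Aid-Cre tumour, 4 of 5 Mb1-Cre tumour, 2 of 4 Sca1-Cre tumour and 1 of 3 Sca1-Cre pre-tumour arrays. Exocrine pancreas genes stood out in Mb1-Cre tumour replicate 2, at 2.55 above the wild-type mean, and in wild type replicate 2, at 0.91.

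Vpreb2 was the member that separated the HGAL spleens from wild type. In Aid-Cre tumours it read 6.39, 6.59, 6.28 and 6.48, in Mb1-Cre tumours 6.40, 6.03, 6.10, 6.12 and 6.02, and in Sca1-Cre tumours 5.89, 6.06, 6.28 and 6.06. In Sca1-Cre pre-tumour spleens it read 6.45, 6.27 and 6.21, against 5.80, 5.56 and 5.76 in wild-type spleens. Every one of the 16 HGAL arrays lay above every wild-type array, with a range of 5.89 to 6.59 and a median of 6.24 against 5.56 to 5.80. Among all genes, 0.144% showed HGAL arrays wholly above wild type. Because that difference of Vpreb2 was known when the genes were chosen, these levels and the Aid-Cre comparison are a description and give it no independent support.

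**Figure D1:**
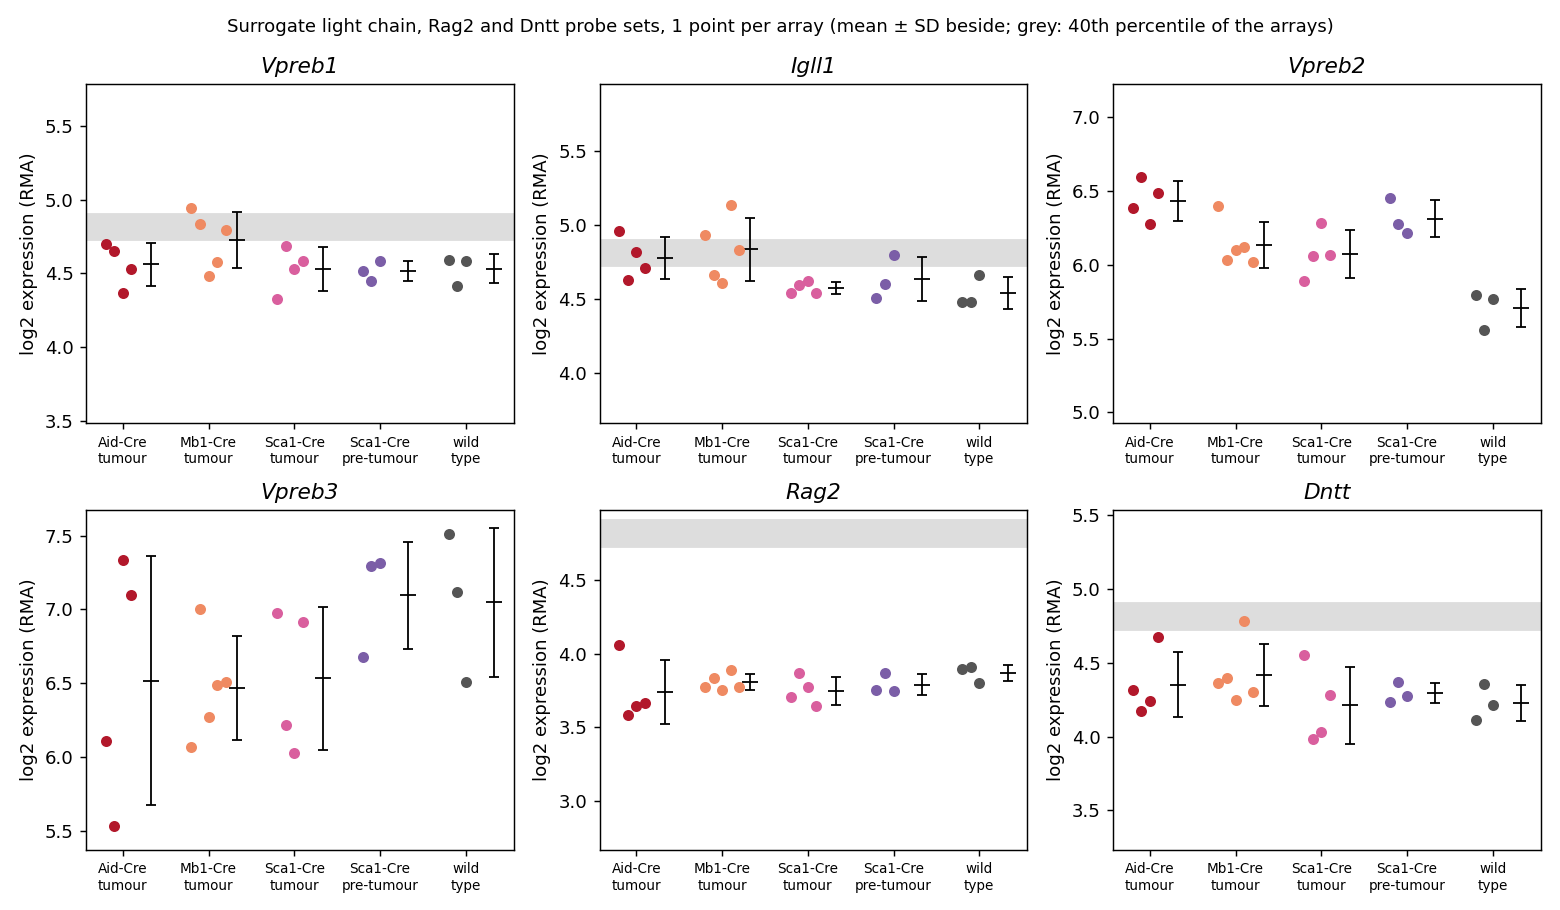
Log2 expression of the 6 measured genes on each of the 19 arrays (1 point per array), by group, with the group mean ± SD beside the points and the span of the arrays' 40th percentiles in grey. All 16 HGAL arrays lie above the 3 wild-type arrays for Vpreb2, the Vpreb3 points are the most spread, and Rag2 lies below the grey band on every array.

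By group mean, Vpreb2 ranked in the order Aid-Cre tumour (6.43 ± 0.14, SD, n = 4), Sca1-Cre pre-tumour (6.31 ± 0.12, SD, n = 3), Mb1-Cre tumour (6.13 ± 0.15, SD, n = 5), Sca1-Cre tumour (6.07 ± 0.16, SD, n = 4) and wild type (5.71 ± 0.13, SD, n = 3). Neighbours in that order overlapped in their ranges, except that the lowest Sca1-Cre tumour array, at 5.89, was above the highest wild-type array, at 5.80. Within groups Vpreb2 varied by a pooled SD of 0.14, below the median of 0.18 over all genes.

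Against wild type, Vpreb2 rose in Aid-Cre tumours by 0.73 ± 0.11 (SE), or 1.66-fold (limma adjusted p = 0.0372), and all 4 arrays were higher. It was the only one of the 6 members called there, where 0.018% of all genes were called in either direction and 0.00451% as higher. Without any single Aid-Cre or wild-type array the call was lost (limma adjusted p from 0.0516 to 0.366), with a difference between 0.65 and 0.78. It was also lost without Mb1-Cre tumour replicate 3 or 5, Sca1-Cre tumour replicate 2 or 4, or Sca1-Cre pre-tumour replicate 2 (limma adjusted p from 0.0551 to 0.0734). With a sex covariate it was 0.66 (limma adjusted p = 0.354), and over only the arrays with Y-linked signal 0.57 (limma adjusted p = 0.776). With only the Aid-Cre tumour and wild-type arrays in the fit the adjusted p of limma was 0.344.

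In the other comparisons with wild type limma called 0 of the 6 members. Vpreb2 was higher by 0.43 ± 0.11 (SE) in Mb1-Cre tumours (limma adjusted p = 0.204), by 0.37 ± 0.11 in Sca1-Cre tumours (limma adjusted p = 0.227) and by 0.61 ± 0.12 in Sca1-Cre pre-tumour spleens (limma adjusted p = 0.193). Calls over all genes there came to 0%, 0.0406% and 0.00451%. At an unadjusted limma p under 0.05, 2 members passed in Mb1-Cre tumours, Vpreb2 and Igll1, and 1 member, Vpreb2, in each of the other HGAL groups. That threshold was passed by 8.3% of all genes with Aid-Cre, 11.3% with Mb1-Cre tumours, 11.4% in Sca1-Cre tumours and 5.47% in pre-tumour spleens. Groups lay wholly above wild type, as Vpreb2 did, for 3.75% of all genes with Aid-Cre, 4.1% with Mb1-Cre tumours, 6.21% in Sca1-Cre tumours and 8.35% in pre-tumour spleens. Weighting each tumour group equally, Vpreb2 was 0.51 ± 0.09 above wild type (limma adjusted p = 0.0904), with 0 of 6 members called and 0.018% of all genes. At an unadjusted limma p under 0.05 Vpreb2 alone of the members passed, as did 8.93% of all genes. For Vpreb2 all 13 tumour arrays lay above wild type, as they did for 0.243% of all genes. The pooled comparison holds the Aid-Cre arrays, and every comparison in this paragraph uses the same 3 wild-type arrays. For Vpreb2 they too are descriptions and give no independent support.

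**Figure D2:**
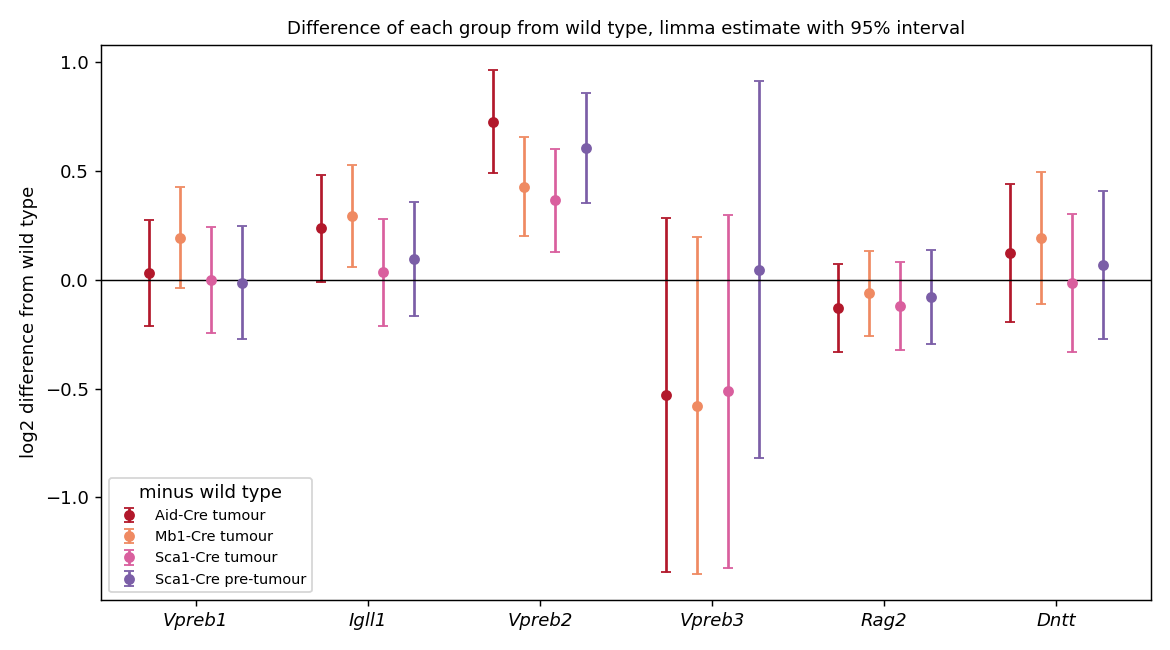
Difference of each HGAL group from wild type on the log2 scale (limma estimate with its 95% interval) for the 6 measured genes. The Vpreb2 intervals lie above 0 in all 4 groups, the Vpreb3 intervals are wide and cross 0, and the Mb1-Cre interval for Igll1 also lies above 0. Intervals are not adjusted for the number of genes.

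Between HGAL groups limma called 0 of 6 members in each comparison, against 0% of all genes for Sca1-Cre tumours over pre-tumour spleens, 0.0451% for Aid-Cre over Mb1-Cre tumours, 0.0451% for Aid-Cre over Sca1-Cre tumours and 0.0406% for Mb1-Cre over Sca1-Cre tumours. In each of these 1 member had an unadjusted p under 0.05, Igll1 for Mb1-Cre over Sca1-Cre tumours and Vpreb2 in the rest, against 5.34%, 8.76%, 13.6% and 17.6% of all genes in the same order. Vpreb2 was higher in Aid-Cre than in Mb1-Cre tumours by 0.30 ± 0.10 (limma adjusted p = 0.402) and than in Sca1-Cre tumours by 0.36 ± 0.10 (limma adjusted p = 0.152). In Sca1-Cre tumours it differed from the pre-tumour spleens of the same genotype by -0.24 ± 0.11 (limma adjusted p = 0.851), with overlapping ranges. Mb1-Cre and Sca1-Cre tumours differed by 0.06, with a 95% interval of -0.15 to 0.27.

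Vpreb2 differed between arrays with and without Y-linked signal within some groups. In Aid-Cre tumours the array with it read 6.28 and the 3 without it 6.39 to 6.59, and in Mb1-Cre tumours the 4 with it read 6.02 to 6.12 and the array without it 6.40. Sca1-Cre tumours overlapped, at 6.06 on both arrays with it and 5.89 and 6.28 without. Pre-tumour spleens went the other way, at 6.45 with it against 6.21 and 6.27 without. Over all groups the 8 HGAL arrays with Y-linked signal ranged from 6.02 to 6.45 with a median of 6.08, and the 8 without it from 5.89 to 6.59 with a median of 6.33. All 16 were above the 3 wild-type arrays, which carried it. The part of sex in the Vpreb2 difference was not tested beyond these values and the fits above.

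Vpreb1, the other copy, showed no such separation. It read 4.70, 4.65, 4.37 and 4.53 in Aid-Cre tumours, 4.94, 4.83, 4.48, 4.58 and 4.80 in Mb1-Cre tumours, and 4.33, 4.68, 4.53 and 4.58 in Sca1-Cre tumours. Pre-tumour spleens read 4.52, 4.45 and 4.58, and wild-type spleens 4.59, 4.42 and 4.59. Only the Mb1-Cre tumour mean, 4.73 ± 0.19 (SD, n = 5), was above the near-background level. On 16 of 19 arrays Vpreb1 was below that array's own 40th percentile. Its difference in Mb1-Cre tumours was 0.19 ± 0.11 from wild type (limma adjusted p = 0.510) and 0.20 ± 0.10 from Sca1-Cre tumours (limma adjusted p = 0.328), and all tumours together differed from wild type by 0.07 ± 0.10 (limma adjusted p = 0.858).

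Across the 19 arrays Vpreb1 and Vpreb2 correlated at r = 0.21, and at 0.48 after removing group means. These are descriptions over arrays that share the same groups. The probe sequences were not used here, so whether the probe sets tell the copies apart was not tested.

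Igll1, which encodes lambda5, the partner of VpreB in the surrogate light chain, was low in every group. It read 4.96, 4.63, 4.82 and 4.71 in Aid-Cre tumours, 4.93, 4.66, 4.61, 5.14 and 4.83 in Mb1-Cre tumours, and 4.54, 4.60, 4.62 and 4.54 in Sca1-Cre tumours. Pre-tumour spleens read 4.51, 4.60 and 4.80, and wild-type spleens 4.48, 4.48 and 4.66. The Aid-Cre mean of 4.78 ± 0.14 (SD, n = 4) and the Mb1-Cre mean of 4.84 ± 0.21 (SD, n = 5) were above the near-background level, unlike the 3 remaining groups.

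Igll1 was 0.24 ± 0.12 above wild type in Aid-Cre tumours (limma adjusted p = 0.623) and 0.30 ± 0.11 in Mb1-Cre tumours (limma adjusted p = 0.340). Mb1-Cre tumours were 0.26 ± 0.10 above Sca1-Cre tumours (limma adjusted p = 0.209). Aid-Cre tumours were 0.20 ± 0.11 above Sca1-Cre tumours with every array higher, the lowest at 4.63 against a highest of 4.62 (limma adjusted p = 0.425), a separation in this direction that 3.05% of all genes showed. Taking all tumours, Igll1 was 0.19 ± 0.10 above wild type (limma adjusted p = 0.591). Of the 16 HGAL arrays 7 were above every wild-type array and 0 were below every one.

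Vpreb3, the VpreB relative that B cells keep making, varied most within groups, with a pooled SD of 0.54. It read 6.11, 5.53, 7.33 and 7.10 in Aid-Cre tumours, 6.07, 7.01, 6.27, 6.49 and 6.51 in Mb1-Cre tumours, and 6.98, 6.22, 6.03 and 6.92 in Sca1-Cre tumours. Pre-tumour spleens read 6.68, 7.29 and 7.31, and wild-type spleens 7.51, 7.12 and 6.51. The groups overlap throughout. Of the 16 HGAL arrays 7 were below every wild-type array and 0 above, and those 7 were all tumour arrays.

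Vpreb3 differed from wild type by -0.53 ± 0.38 in Aid-Cre tumours (limma adjusted p = 0.760), by -0.58 ± 0.37 in Mb1-Cre tumours (limma adjusted p = 0.559) and by -0.51 ± 0.38 in Sca1-Cre tumours (limma adjusted p = 0.673). In pre-tumour spleens the difference was 0.05 ± 0.41 (limma adjusted p = 0.999), and between Sca1-Cre tumours and pre-tumour spleens it was -0.56 ± 0.38 (limma adjusted p = 0.851). Over all tumours it was -0.54 ± 0.32 (limma adjusted p = 0.645). None of these passed the test.

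Vpreb3 moved with the mature B cell genes of the spleen. The mature B cell list of 6 measured genes averaged -1.29 ± 1.90 for the Aid-Cre tumours, -1.43 ± 0.65 for the Mb1-Cre tumours, -0.84 ± 0.99 in Sca1-Cre tumours and -0.14 ± 0.30 in pre-tumour spleens, as the mean log2 difference from wild type (SD over arrays; wild-type SD 0.28). The ranges over arrays were -3.91 to 0.24, -2.22 to -0.45, -2.26 to 0.03, -0.47 to 0.10 and, in wild type, -0.28 to 0.28. None of the 6 genes was near background in any group. All 6 were lower in all tumours than in wild type and 0 were called by limma, with a median of -1.11 against 0.00 for all genes. Ly6d was at -1.72 ± 0.59 and Cr2, complement receptor CD21, at -1.71 ± 1.02.

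Over the 19 arrays Vpreb3 and this list correlated at Pearson r = 0.86 and Spearman rho = 0.88 (permutation p = 1e-05 each, the smallest the 100000 permutations can give). Adjusted over 6 such relations, 1 per member, each p was 6e-05. Without the 2 arrays farthest from the median of the list r was 0.79, after removing group means 0.83, and among the 13 tumour arrays alone 0.87. The arrays share their libraries, groups and spleen make-up. Other lists moved with Vpreb3 too, at r = 0.83 for the early B lineage transcription factors and 0.79 for the pre-B cell receptor partners. The partner list shares Cd79b with the mature B cell list. Neutrophil precursors were at -0.73, haematopoietic progenitors at -0.71 and the pro-B and pre-B cell markers at -0.07. Whether the relation is particular to mature B cell genes was not tested. The part of cell content in the Vpreb3 differences was not tested.

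**Figure D3:**
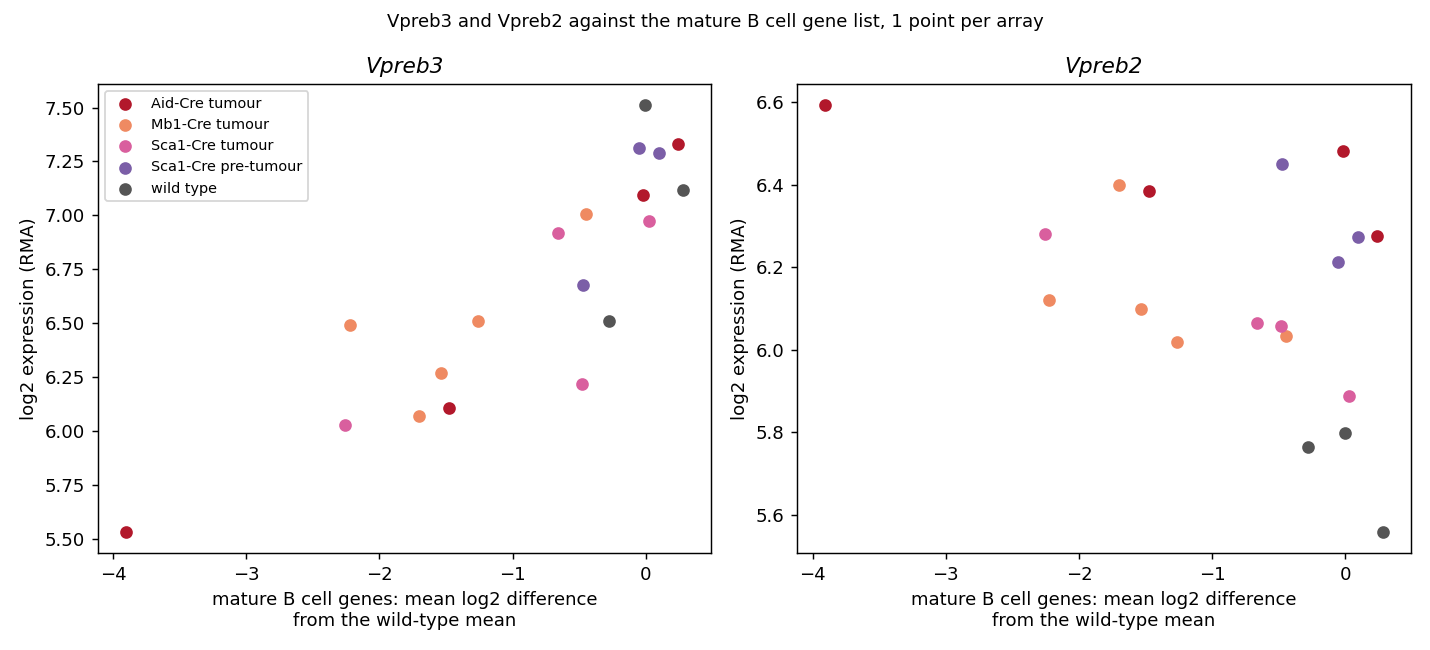
Log2 expression of Vpreb3 (left) and Vpreb2 (right) against the mean log2 difference of the 6 mature B cell genes from the wild-type mean, 1 point per array and coloured by group. Vpreb3 is lowest on the Aid-Cre array where the list is lowest, at 5.53 and -3.91, and that array has the highest Vpreb2 value, 6.59.

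Vpreb2 ran the other way, at r = -0.48 (permutation p = 0.0358, adjusted p = 0.107) and rho = -0.42 (permutation p = 0.0728, adjusted p = 0.134), which does not pass the adjustment. Without the 2 farthest arrays r was -0.28, and after removing group means -0.63. For the other 4 members r ranged from -0.39 to 0.15 and none passed the adjustment, with the lowest adjusted p at 0.0842 for Vpreb1 by rho. Without the 2 farthest arrays r was -0.68 for Igll1, against -0.35 over all arrays, -0.54 for Vpreb1, against -0.39, -0.27 for Rag2, against 0.15, and -0.25 for Dntt, against 0.09, so these values depend on 2 arrays. Vpreb2 and Vpreb3 themselves correlated at -0.40, and at -0.61 after removing group means.

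Rag2 (chromosome 2, 101624712 to 101632528), the partner of Rag1 in the recombinase, was below the 40th percentile of its own array on all 19 arrays. It read 4.06, 3.58, 3.65 and 3.67 in Aid-Cre tumours, 3.78, 3.84, 3.75, 3.89 and 3.78 in Mb1-Cre tumours, and 3.71, 3.87, 3.78 and 3.64 in Sca1-Cre tumours. Pre-tumour spleens read 3.75, 3.87 and 3.74, and wild-type spleens 3.89, 3.91 and 3.80. All tumours differed from wild type by -0.10 ± 0.08 (limma adjusted p = 0.730), which is not detectable at this level. Rag2 and Iftap overlap in the gene table, so a share of the signal cannot be given to a single gene with certainty.

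Dntt (chromosome 19, 41029275 to 41059525) was also near background in all groups and below the 40th percentile on all 19 arrays. Aid-Cre tumours read 4.32, 4.17, 4.24 and 4.67, Mb1-Cre tumours 4.37, 4.40, 4.25, 4.78 and 4.30, and Sca1-Cre tumours 4.55, 3.99, 4.03 and 4.28. Pre-tumour spleens read 4.24, 4.37 and 4.28, and wild-type spleens 4.11, 4.36 and 4.21. All tumours were 0.10 ± 0.13 above wild type (limma adjusted p = 0.846). Arrays of every group overlapped with wild type.

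The other genes of the pathway were counted from lists. Of 9 measured partners of the pre-B cell receptor, 0 were called in all tumours against wild type, and 9 were lower, with a median difference of -0.42 against 0.00 for all genes, of which 51.5% were higher. Cd79a, the receptor's signalling chain, was at -1.18 ± 0.55, Blnk, its adaptor, at -0.90 ± 0.48 and Cd79b, the partner of Cd79a, at -0.74 ± 0.42. In wild-type spleens Cd79a averaged 12.17 and Cd79b 11.71. Cd79b is also on the mature B cell list, so the counts of both lists are not separate results. By unadjusted p under 0.05 1 of the 9 passed, where 8.93% of all genes did, a share against which the counts of the next lists are also to be read. Of 18 transcription factors of the early B lineage, 0 were called, 4 were higher and 14 lower, with a median of -0.29. Sox4, at 0.42 ± 0.16, and Myb, at 0.60 ± 0.27, were higher and Bcl11a was at -0.51 ± 0.28, and 2 passed at an unadjusted p under 0.05.

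Among 12 markers of pro-B and pre-B cells, 6 were higher and 6 lower in all tumours, 0 were called and the median was 0.02. Bst1, a cell surface enzyme, was at 0.96 ± 0.40. The receptor subunit gene Crlf2 was at -0.19 ± 0.10 and the stem cell factor receptor Kit at 0.32 ± 0.22. Of the 12 markers, 1 was under an unadjusted limma p of 0.05. Bst1 was highest in Mb1-Cre tumours, with a mean of 7.55 against 6.05 in wild type. Neutrophil precursor genes were also highest there, with a median difference from wild type of 2.22. The part of other cells in the Bst1 difference was not tested. Enpep and Arpp21 were near background in all groups. Of 13 measured end joining and recombination cofactors 3 were higher, 10 lower and 0 called, with a median of -0.21. Paxx was at -0.23 ± 0.09, the DNA ligase Lig4 at -0.35 ± 0.16 and Xrcc4, its partner, at -0.24 ± 0.14, and 2 passed at an unadjusted p under 0.05.

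Marker lists of other cells, compared in all tumours with wild type, held 0 called genes each. Lower in all measured members were T cells (4 of 4, median -0.31) and erythroid precursors (4 of 4, -0.25) in that pooled comparison, while haematopoietic progenitors (6 of 6, 0.22) and neutrophil precursors (8 of 8, 1.12) were higher in all. Single groups differed from this: T cell genes were higher in 4 of 4 in Sca1-Cre tumours (median 0.51) and pre-tumour spleens (0.65), and lower in 4 of 4 in Aid-Cre (-0.71) and Mb1-Cre tumours (-0.65). Erythroid genes were higher in 3 of 4 in Mb1-Cre tumours (0.08) and lower in 4 of 4 in pre-tumour spleens (-2.03), where neutrophil precursor genes were lower in 8 of 8 (-0.37). Neutrophil precursor genes were higher in 5 of 8 in Aid-Cre tumours (0.19). Immature thymocyte genes were higher in 2 of 5 (-0.12), plasmacytoid dendritic cell genes in 2 of 6 (-0.23), plasma cell genes in 5 of 6 (0.15) and exocrine pancreas genes in 1 of 7 (-0.28). On the pancreas list wild type replicate 2 was 0.91 above the wild-type mean, and the other wild-type arrays were at -0.47 and -0.44. Mb1-Cre tumour replicate 2 was at 2.55. At an unadjusted p under 0.05, 1 gene passed in the dendritic cell list, 1 in the pancreas list and 1 in the mature B cell list, and 0 in the rest. Over arrays, Vpreb2 correlated with the neutrophil precursor list at 0.06 and with the haematopoietic progenitor list at 0.28, and after removing group means at 0.22 and 0.46. The part of these cells in the Vpreb2 difference was not tested.

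The genes most like each member over the 19 arrays, by Pearson r among 12071 genes, are given as descriptions. The 12071 had a mean at or above the 40th percentile of gene means. Members, predicted genes, small RNA genes and olfactory receptor genes were left out. Vpreb2 was most like Bsn (0.86), Tg, thyroglobulin (0.82), and Sybu (0.82). After removing group means these values were 0.69, 0.80 and 0.43 in the same order. Against wild type Bsn was 0.52 ± 0.11 higher in Aid-Cre tumours (limma adjusted p = 0.153) and Sybu 0.39 ± 0.09 (limma adjusted p = 0.195). Vpreb3 was most like Fcer2a, the low-affinity IgE receptor CD23 (0.91), which is also on the mature B cell list, then Pqbp1 (0.91) and Icosl, the ligand of ICOS (0.90).

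Vpreb1 was most like Emilin1 (0.80), Prodh (0.80) and Pik3r6 (0.79), and Igll1 most like the chemokine Cxcl1 (0.78), Ihh (0.77) and Ddah1 (0.77). The low genes had lower values, with Vwce (0.67), Krt33b (0.66) and Spaca9 (0.61) for Rag2, and Ccdc106 (0.74), Peli3 (0.71) and Cryba2 (0.71) for Dntt. By Spearman rho the Dntt values were 0.59, 0.58 and 0.37 in the same order.

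The measured genes beside the members on the chromosome were not called in all tumours against wild type. Beside Vpreb2, Slc25a1 was at 0.16 ± 0.12 and Dgcr6 at -0.01 ± 0.08, while Vpreb2 was at 0.51 ± 0.09. In Sca1-Cre tumours alone Slc25a1 was 0.40 ± 0.14 above wild type (limma adjusted p = 0.287), close to the 0.37 ± 0.11 of Vpreb2 there, and in Aid-Cre tumours it was at -0.03 ± 0.14. Top3b, beside Vpreb1, was at -0.28 ± 0.13, and Traf6, the nearest measured gene after Rag2, at -0.26 ± 0.13.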

How the data were processed

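Total RNA from 19 spleens was extracted with Trizol and labelled with biotin, per the labels' protocols, and hybridised to Affymetrix arrays. The authors deposited log2 values from RMA in oligo, per the submitters' processing notes, with versions not given in the sources used here. Values were used as deposited, with array medians from 5.23 to 5.40, and 0 columns were left unused. Precision is set by how many arrays each group has.

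Of 41345 probe sets, 23521 had 1 gene symbol, 1814 several and 16010 none. Where a gene had several (1082 genes), the brightest on average was kept. One group-means model was fitted over all 19 arrays with limma 3.58.1 in R 4.3.3, without a covariate, for 9 contrasts, with no filter on dim genes. The method was tested on simulated data. Named genes were the members, the 3 genes most like each, the measured neighbours and, from each list, called genes or the 3 with the smallest p in all tumours against wild type. Members and lists were chosen with earlier results of these data known. Sequences came from RefSeq. The replicate numbers were not treated as pairs in the main fit. Deviations from group means correlated at r over 0.1 in 8 of 33 same-number pairs, with a range of -0.53 to 0.41. Pairs with different numbers were not compared, so these values cannot show whether the numbers pair samples. Alternatives changed the normalization, filter, probe set rule, arrays in the fit, variance model, weights, block, sex covariate and arrays left out.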

Additional observations from a re-analysis of the deposited data

Results flagged for a closer look

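In 18 sets of 4 or 5 arrays (6 members in 3 groups), 3 arrays stood apart from the rest of their group by Dixon's test, where chance gives about 1 in 20 sets. Vpreb2 in Mb1-Cre tumour replicate 1 was 6.40, against 6.02 to 6.12 in the other 4 arrays, and it was the only array of that group without Y-linked signal; the part of sex in this was not tested. Rag2 in Aid-Cre tumour replicate 1 was 4.06, against 3.58 to 3.67 in the other 3, all near background. Dntt in Mb1-Cre tumour replicate 4 was 4.78, against 4.25 to 4.40 in the other 4.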

How the results depend on the processing

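Of 54 member differences, only the 25 reported above were followed through the settings. Of those 25, 19 kept direction and side of the threshold in all 12 settings that did not leave out a single array. Rag2 and Dntt had 11 such settings because they did not pass the dim filter. For Aid-Cre tumours against wild type the count of called members was 1, and it was 0 with only the compared groups in the fit (Vpreb2 limma adjusted p = 0.344), with variance trend and robust settings (0.0506), with the replicate block (difference 0.73, limma adjusted p = 0.222), with the sex covariate (0.354), without both arrays with pancreatic transcripts (0.301) and with only arrays with Y-linked signal (0.776), a setting chosen after seeing the data. Leaving out 1 array at a time gave 0 to 1, with Vpreb2 called in 7 of 19 runs. With array weights 1 member, Vpreb2, was called in Mb1-Cre tumours (0.37, limma adjusted p = 0.0487), pre-tumour spleens (0.59, 0.0136) and all tumours (0.46, 0.00993) against wild type. In each of the other 5 comparisons the count was 0 under every setting, and 0 in every run that left out 1 array for all 8 comparisons other than Aid-Cre tumours against wild type.

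Vpreb3 changed sign without being called: in pre-tumour spleens against wild type it was -0.19 with array weights and -0.37 with only arrays with Y-linked signal, and in Aid-Cre tumours against wild type 0.29 with only those arrays. Leaving out 1 array moved the pre-tumour difference of Vpreb3 between -0.22 and 0.28, and the Mb1-Cre over Sca1-Cre difference of Vpreb2 between -0.0041 and 0.13. The cause of these changes was not tested, beyond the fewer arrays in some settings. Signal near background limits Rag2, Dntt, Vpreb1 and Igll1.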
